A study of Sus scrofa with 2 samples.

Results

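FOXA2 and SPDEF, 2 transcription factor genes tied to uterine glands and secretory epithelium, were followed through single cells of pig endometrium. Both were chosen by name, with earlier results of these data known. Each matched exactly 1 of the 26881 features in the deposited tables (FOXA2 as ENSSSCG00025061165 and SPDEF as ENSSSCG00025052669). FOXA2 encodes a forkhead factor that opens chromatin at its sites. In the uterus it is known as a mark of glandular epithelium, where it is needed for glands to form and to secrete, in the mouse including the cytokine LIF. SPDEF encodes an ETS factor of secretory epithelia, best known for driving goblet and mucous cell differentiation in gut and airway. Pig placentas do not invade the uterine wall, and gland secretions feed the conceptus through pregnancy.

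Endometrium was taken from 2 Yorkshire sows, both 3 years old and described in the labels as of similar genetic background. The embryo loss sow (EL) had aborted and had then failed to conceive at repeated inseminations, with no stage at sampling stated, while the implantation sow (EIS) was pregnant and sampled on day 30 after insemination. Tissue of each uterine horn was digested with collagenase and a second protease and filtered, steps that can set which cells were recovered, and transcripts were counted by their unique molecular identifiers (UMIs) on the 10x Genomics 3' platform. Because a single sow and library stand for each group, effects of animal, reproductive history, stage and library preparation cannot be told apart, and no test between the groups can be run and no p-value is given.

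Sequencing gave 43302286 UMIs over 10936 barcodes for EL and 36069473 UMIs over 8848 barcodes for EIS. After filtering, 9864 EL cells (median 2345.5 UMIs) and 8068 EIS cells (median 2240.5 UMIs) were kept, and the libraries had 27 barcodes in common. Over all kept cells FOXA2 stood at 156 CPM (UMIs of the gene relative to all UMIs of the cells summed, on the CPM scale, as in all levels below) in EL and 47.5 CPM in EIS, and SPDEF at 621 and 10.8 CPM. Such library-wide values mix cell composition with level per cell, so the genes were next read within groups of cells defined by marker UMIs, here called gates. All intervals below are 95% intervals (exact Poisson for levels, Clopper-Pearson for shares, exact conditional for ratios) and cover counting error only.

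The gates did not line up between the sows. In EL the non-ciliated epithelium fell into gates named for PON3 (1160 cells), JPH4 (1881), CCK (816) and CYP26A1 (1010), genes that led its clusters. In EIS it fell into a secretory gland gate of 2071 cells, marked by ACP5, UABP-2 and other genes of uterine secretions, and a gate of 150 cells led by AQP8. The secretory gland gate held 1 EL cell and the AQP8 gate none, while EIS had 7 cells in the PON3 gate, 1 in the CCK gate and none in the JPH4 and CYP26A1 gates. Of the named epithelial gates only the ciliated one was well filled in both libraries, with 1667 EL and 274 EIS cells. Its marker FOXJ1, the master regulator of motile cilia, stood at 540 CPM in EL ciliated cells and 719 CPM in those of EIS, and at 6.97 to 10.7 CPM in each of the other named epithelial gates. Only 8 of 18 ciliated markers and 2 of 8 general epithelial markers (KRT8 and KRT18) were present by symbol. Cells with these keratins and no other marker set formed a keratin-only gate of 1062 EL and 202 EIS cells.

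FOXA2 was read over the EL subtypes first. Summed over all cells of a gate it was highest in the PON3 and JPH4 gates, intermediate in ciliated cells and the CCK gate, and lowest in the CYP26A1 gate. The PON3 gate stood at 294 CPM (280 to 309), the JPH4 gate at 234 (221 to 247), ciliated cells at 159 (150 to 169), the CCK gate at 136 (123 to 150) and the CYP26A1 gate at 15.9 (13.6 to 18.5). Each step in this order exceeded counting error: PON3 over JPH4 was 1.26-fold (1.17 to 1.35), JPH4 over ciliated 1.47-fold (1.36 to 1.59), ciliated over CCK 1.17-fold (1.04 to 1.31) and CCK over CYP26A1 8.58-fold (7.15 to 10.3). The keratin-only gate, at 225 CPM (210 to 241), could not be separated from the JPH4 gate (JPH4 over keratin-only 1.04-fold, 0.95 to 1.14). The order belonged to the deeper cells. In cells of at least 2000 UMIs the PON3 gate stood at 298 CPM, JPH4 at 242, ciliated at 156, CCK at 127 and CYP26A1 at 10.0. Below 2000 UMIs the gates stood at 189, 195, 198, 222 and 234 CPM in the same order, all with overlapping intervals.

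Lymphocytes, which should lack FOXA2, gave a guide to the level that free RNA can reach in a droplet. In EL they held 6 FOXA2 UMIs over 250 cells (17.7 CPM, 6.50 to 38.5), at a median of 1309 UMIs per cell. Other EL groups outside the epithelium differed. Small clusters led by stroma markers (53 cells) and neutrophil markers (26 cells) stood at 199 and 201 CPM, on 19 and 14 UMIs. Those led by macrophage or monocyte markers (88 cells) and endothelium markers (32 cells) stood at 9.16 and 10.8 CPM. Summed over its cells the CYP26A1 gate was not separable from the lymphocyte level, with a ratio of 0.898 (0.404 to 2.48). CYP26A1 encodes an enzyme that breaks down retinoic acid, and this gate was the deepest of the epithelium, with a median of 10110 UMIs per cell. Its 771 cells of at least 2000 UMIs stood at 10.0 CPM (8.17 to 12.1), but its 239 shallower cells stood at 234 CPM (180 to 298), against 19.9 CPM (7.31 to 43.4) in the lymphocytes below 2000 UMIs. The low level was thus that of the deep cells and not of the whole gate. In the cluster of 676 cells that held most of the gate, made without FOXA2 and SPDEF, FOXA2 stood at 2.86 CPM. Another 304 cells of the gate lay in cluster 0 (2682 cells, median 889 UMIs), where FOXA2 stood at 199 CPM. Depth and cluster were not told apart.

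SPDEF had another order in the same EL cells. It was highest in the JPH4 gate, nearly as high in the CCK and PON3 gates, and low in both ciliated and CYP26A1 cells. The JPH4 gate stood at 1433 CPM (1401 to 1465), the CCK gate at 1176 (1138 to 1216) and the PON3 gate at 1062 (1035 to 1089). Ciliated cells followed at 121 CPM (113 to 129) and the CYP26A1 gate at 47.4 (43.3 to 51.7), 11.8-fold (11.0 to 12.7) and 30.2-fold (27.6 to 33.2) below the JPH4 gate. Summed over all cells of a gate, here too every neighbouring step exceeded counting error, the smallest being CCK over PON3 at 1.11-fold (1.06 to 1.16). Ciliated cells thus ranked just above the CCK gate for FOXA2 and far below it for SPDEF.

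EL lymphocytes held 23 SPDEF UMIs, or 67.9 CPM (43.0 to 102), a higher level there than for FOXA2. Summed over its cells the CYP26A1 gate lay within counting error of it (ratio 0.698, 0.460 to 1.11). Again deep and shallow cells of the gate differed. Those of at least 2000 UMIs stood at 37.0 CPM (33.4 to 40.9) and the shallower ones at 432 CPM (358 to 516), against 53.1 CPM (30.4 to 86.3) in the shallow lymphocytes. Clusters 11 and 0, which held 665 and 304 of the gate's cells, stood at 21.0 and 527 CPM. Ciliated cells lay 1.78-fold above the level of all EL lymphocytes (1.18 to 2.83). The small macrophage or monocyte gate (60 cells, median 1608.5 UMIs), another cell type that should lack the gene, stood higher still at 202 CPM (140 to 282). The small stroma and neutrophil clusters stood at 346 and 917 CPM, on 33 and 64 UMIs, and the endothelium cluster at 43.2 CPM. How much of this was free RNA was not tested.

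**Figure D1:**
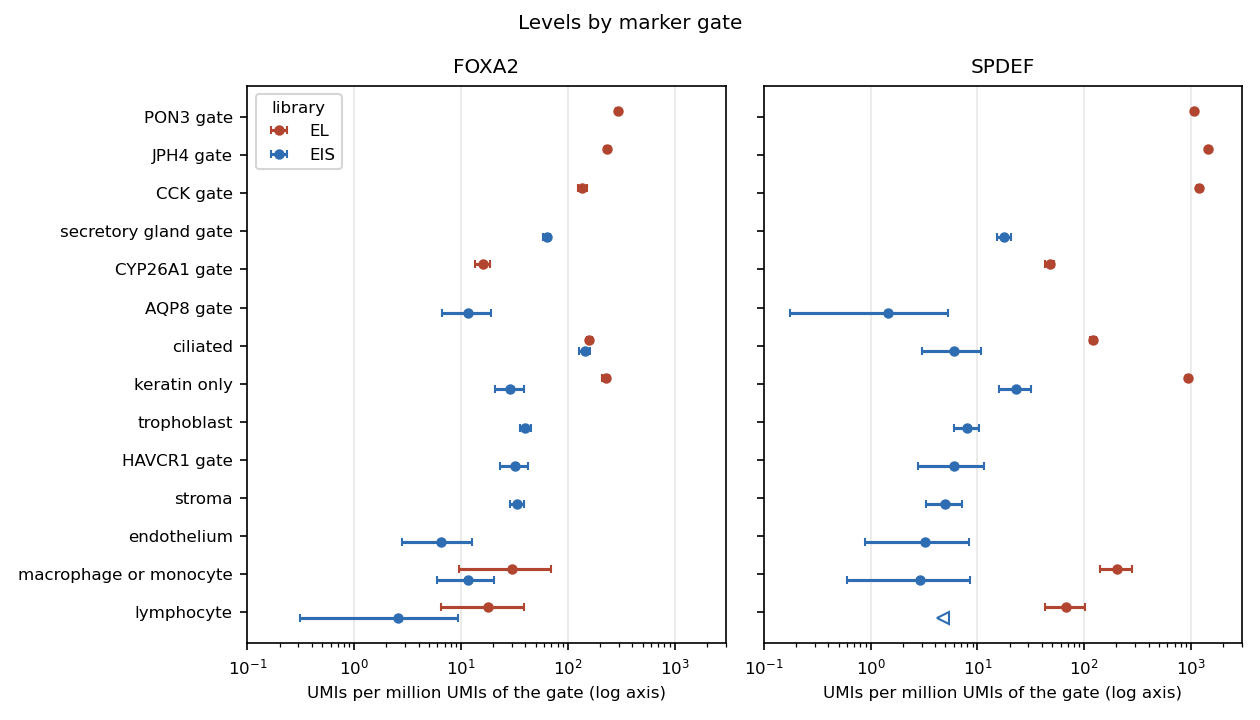
Levels of FOXA2 (left) and SPDEF (right) in CPM on a log axis, by gate, for EL (red) and EIS (blue); bars are exact Poisson 95% intervals and the open triangle marks the upper limit of a gate with 0 UMIs. FOXA2 in ciliated cells lies at 159 CPM in EL against 143 CPM in EIS, while SPDEF there lies at 121 and 6.02 CPM.

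On the scale of all UMIs, both genes were lower in the EIS gland cells than in the EL PON3, JPH4 and CCK gates. On that scale FOXA2 in EIS was highest in ciliated cells, at 143 CPM (127 to 162). The secretory gland gate followed at 63.5 CPM (58.7 to 68.7), the keratin-only gate at 28.7 (20.9 to 38.6) and the AQP8 gate at 11.7 (6.66 to 18.9, 16 UMIs). Ciliated cells stood 2.26-fold (1.95 to 2.61) above the secretory gland gate and 12.3-fold (7.44 to 21.9) above the AQP8 gate. This order of ciliated over secretory cells rests on the scaling: genes above 1% of a library (SLPI, ACP5, UABP-2, TIMP2 and ENSSSCG00025058653) took 57.4% of all UMIs of the secretory gland gate and 2.22% of those of ciliated cells. With those genes left out of the totals, the secretory gland gate stood at 149 CPM for FOXA2 and 41.5 CPM for SPDEF. Non-ciliated over ciliated FOXA2 in EIS then moved from -1.32 to -0.26 on the log2 scale, and with trimmed-mean (TMM) factors it turned to 0.022.

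EIS lymphocytes held 2 FOXA2 UMIs over 423 cells (2.58 CPM, 0.312 to 9.32, median 1743 UMIs per cell). The secretory gland gate stood 24.6-fold above them (6.79 to 204) and the AQP8 gate 4.52-fold (1.06 to 40.5). Other EIS gates were not all as low as lymphocytes. Trophoblast cells (1628, marked by pregnancy-associated glycoproteins and other trophoblast genes) stood at 39.9 CPM, stroma at 33.2 and a gate led by HAVCR1 at 31.7. A second gate was passed by 1029 of the trophoblast cells, 1026 of 1509 stroma cells and 280 of 370 HAVCR1 cells. Those gates also carried the gland products ACP5 and UABP-2, at 52600, 39002 and 40716 CPM together, against 182027 in the secretory gland gate and 7345 in lymphocytes. Per 10000 ACP5 and UABP-2 UMIs there were 3.49 FOXA2 UMIs (3.22 to 3.77) in the secretory gland gate, 3.51 (0.425 to 12.7) in lymphocytes, 7.59 in trophoblast cells and 8.52 in stroma. In ciliated cells there were 273 (241 to 309), so these cells held more FOXA2 per gland product UMI than any of the gates just named.

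SPDEF in EIS was scarce everywhere. The secretory gland gate stood at 17.7 CPM (15.2 to 20.5, 177 UMIs in 2071 cells), the keratin-only gate at 22.8 (15.9 to 31.8, 35 UMIs), ciliated cells at 6.02 (3.01 to 10.8, 11 UMIs) and the AQP8 gate at 1.46 (0.176 to 5.26, 2 UMIs). The keratin-only and secretory gland gates did not separate (ratio 1.29, 0.871 to 1.86), and the secretory gland gate stood 2.94-fold (1.60 to 5.997) above ciliated cells. EIS lymphocytes held 0 SPDEF UMIs, with an upper limit of 4.76 CPM. Trophoblast cells held 7.96 CPM and stroma 4.96 CPM, and the ciliated value lies between these. The 202 keratin-only cells of EIS, spread over several clusters, also carried the protein disulfide isomerase AGR2 at 1636 CPM, the metalloprotease MMP7 at 359 CPM and the mucin MUC1 at 89.4 CPM, which stood at 26.8, 7.60 and 4.70 CPM in the secretory gland gate.

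Shares of positive cells were compared at an equal UMI total, with each cell thinned to 1000 UMIs and shallower cells left out. The totals include the genes above 1% of a library, which took 57.4% of the UMIs of the EIS secretory gland gate and 0.036% of those of EL non-ciliated cells, so the depth left for all other genes was lower in the EIS gland cells. SPDEF was present in 75.6% of JPH4 gate cells (73.5 to 77.6; 1713 cells, 168 too shallow), 69.7% of CCK gate cells (611 cells, 205 too shallow) and 67.6% of PON3 gate cells (1141 cells, 19 too shallow). Before thinning these shares were 93.3%, 84.8% and 95.5%. It was a gene of most cells in these gates, and 37.1%, 39.3% and 49.4% of their cells, unthinned, held 5 or more SPDEF UMIs, against none of the EIS secretory gland, AQP8, keratin-only or ciliated cells. In the EIS secretory gland gate the share was 1.497% (0.929 to 2.28; 1403 cells, 668 too shallow) thinned and 7.77% unthinned. EL ciliated cells stood at 11.5% (9.93 to 13.3; 1476 cells, 191 too shallow) thinned and 25.01% unthinned, beside 5.37% (2.71 to 9.40; 205 cells, 45 too shallow) thinned and 8% unthinned in EL lymphocytes. Thinned, the 1149 EL ciliated cells of at least 2000 UMIs stood at 6.44% (5.09 to 8.02), which overlaps the lymphocyte interval. Those below 2000 UMIs stood at 29.4% (24.5 to 34.6), beside 4.71% (2.18 to 8.76) in lymphocytes below 2000 UMIs. EIS ciliated cells stood at 0.738% (0.0895 to 2.64), 2 of 271 cells with 3 too shallow, and at 3.65% unthinned. Of the EL ciliated cells 2.82%, unthinned, held 5 or more SPDEF UMIs, with at most 19 in 1 cell.

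FOXA2 was found in fewer cells at this total. It was present in 23.8% (21.4 to 26.4) of PON3 gate cells, 19.4% (17.5 to 21.3) of JPH4 gate cells and 12.6% (10.1 to 15.5) of CCK gate cells, against 60%, 40.2% and 33.1% before thinning. Ciliated cells of the sows overlapped, at 13.6% in EL (11.9 to 15.5) and 15.5% in EIS (11.4 to 20.4), or 44.1% and 55.1% unthinned. The secretory gland gate of EIS stood at 7.84% (6.49 to 9.37), or 23.2% unthinned. In lymphocytes the thinned share was 0.488% (0.0123 to 2.69) in EL and 0.252% (0.00638 to 1.39) in EIS, 1 cell in each library, and the unthinned share 2.00% and 0.473%.

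**Figure D2:**
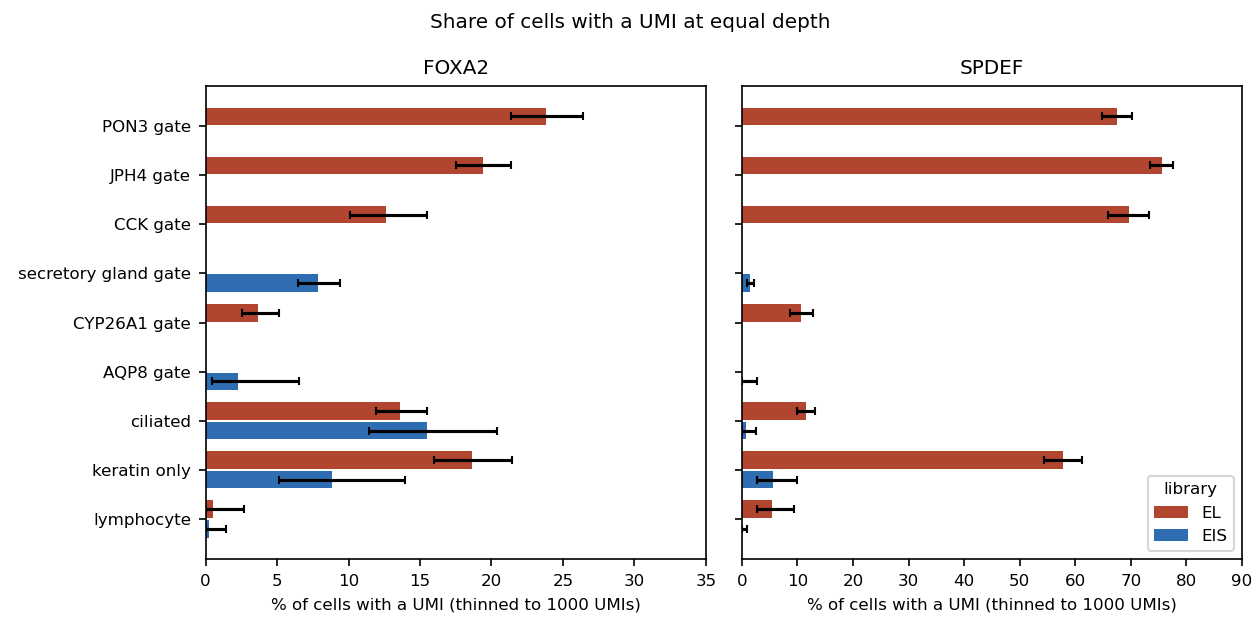
Percent of cells with at least 1 UMI of FOXA2 (left) or SPDEF (right) after thinning each cell to 1000 UMIs, by gate, for EL (red) and EIS (blue), with Clopper-Pearson 95% intervals. SPDEF reaches 75.6% in the EL JPH4 gate and 1.497% in the EIS secretory gland gate, while FOXA2 stays at or below 23.8% in each gate.

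Whether the same cells carried both genes was read in the thinned cells. In the JPH4 gate FOXA2 was found in 19.8% of the cells with SPDEF (17.7 to 22.1) and 17.9% of the cells without it (14.4 to 22.0), and in the PON3 gate in 23.3% and 24.9%. Within these gates detection of 1 gene therefore did not separate cells by the other. The CCK gate showed 14.3% (11.1 to 18.0) and 8.65% (5.02 to 13.7), with overlapping intervals. In the CYP26A1 gate FOXA2 was found in 18.4% of 98 SPDEF cells (11.3 to 27.5) and 1.94% of 823 others (1.12 to 3.14), with intervals that did not overlap. Of its positive cells 18 held both genes, 80 held SPDEF alone and 16 FOXA2 alone. Its 239 cells below 2000 UMIs stood at 234 CPM for FOXA2 and 432 CPM for SPDEF, and their part in this was not tested. In the EIS secretory gland gate only 21 thinned cells held SPDEF, and 3 of them held FOXA2.

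Ciliated cells were the 1 named epithelial gate with enough cells to compare in both sows. They did not share a cluster: those of EL lay in clusters 3 (1201 cells) and 0 (460 cells, a shallow cluster), and those of EIS in cluster 15 (252 cells). FOXA2 differed little there, at 159 CPM in EL against 143 CPM in EIS, a ratio of 1.11 (0.970 to 1.27) or 0.15 on the log2 scale. SPDEF stood at 121 and 6.02 CPM, 20.1-fold higher in EL (11.2 to 40.4). Of 12172 genes with at least 20 UMIs in the libraries combined, 8 had a ratio at least as high as that of SPDEF, itself included, and 4808 one at least as high as that of FOXA2. The share of genes 2-fold or more higher in EL was 6.26%, and 4.51% were 2-fold or more higher in EIS. The median gene stood at 0.045 on the log2 scale.

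The SPDEF value in EL ciliated cells has to be read beside the free RNA of that library. AQP3, a water and glycerol channel that is also a marker of the CCK gate, stood at 310 CPM in EL ciliated cells, 1807 CPM in non-ciliated epithelial cells and 201 CPM in lymphocytes. Per 100 AQP3 UMIs there were 39.1 SPDEF UMIs in ciliated cells (36.1 to 42.2), 40.0 in non-ciliated epithelial cells (39.3 to 40.7) and 33.8 in lymphocytes (20.1 to 55.0). The pooled epithelial value covers unlike gates, from 17.5 in the CCK gate to 45.2 in the CYP26A1, 52.7 in the PON3 and 65.1 in the JPH4 gate, and macrophages or monocytes stood at 57.6. The ciliated SPDEF value lay inside that range, whose low end is the gate chosen in part for AQP3. Of the other EL gates only lymphocytes lay below it. Per 100 UMIs of JPH4 there were 133 SPDEF UMIs in ciliated cells (120 to 147) against 98.8 in non-ciliated cells (96.8 to 101). The JPH4 gate, itself chosen for JPH4, stood at 71.3 and the CCK gate at 175. For FOXA2 there were 51.3 FOXA2 UMIs per 100 AQP3 UMIs in ciliated cells (47.8 to 55.1), 7.88 in non-ciliated epithelial cells and 8.82 in lymphocytes (3.13 to 20.2), and no EL gate other than ciliated cells exceeded 15.1. How much of the ciliated SPDEF came from free RNA was not tested.

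Depth within the ciliated gate moved with SPDEF as well. The 1149 EL ciliated cells of at least 2000 UMIs stood at 95.9 CPM (88.7 to 104) and the 518 shallower ones at 407 CPM (358 to 462). FOXA2 stood at 156 and 198 CPM in the same cells. SPDEF was found in 20.8% of the deep EL ciliated cells, unthinned, and 47 of them held 5 or more of its UMIs. With no doublet removal EL ciliated cells held 1692 SPDEF UMIs over 1888 cells, against 899 over 1667 after it. The deep EIS ciliated cells stood at 144 CPM for FOXA2 and 5.55 CPM for SPDEF, so the SPDEF difference was still 4.11 on the log2 scale among deep cells. Cluster 3 of EL stood at 156 CPM for FOXA2 and 94.8 CPM for SPDEF, and cluster 15 of EIS at 142 and 4.50 CPM. Summed markers of the JPH4 gate stood at 103 CPM in EL against 20.3 CPM in EIS ciliated cells, those of the CCK gate at 370 and 59.7 CPM, and those of stroma at 22.9 and 308 CPM. Their part in the SPDEF ratio was not tested. With 10% of each gate's UMIs removed as free RNA of the library's own profile, the ratio stood at 3.58 on the log2 scale, but no removal of a size measured in these libraries was made.

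**Figure D3:**
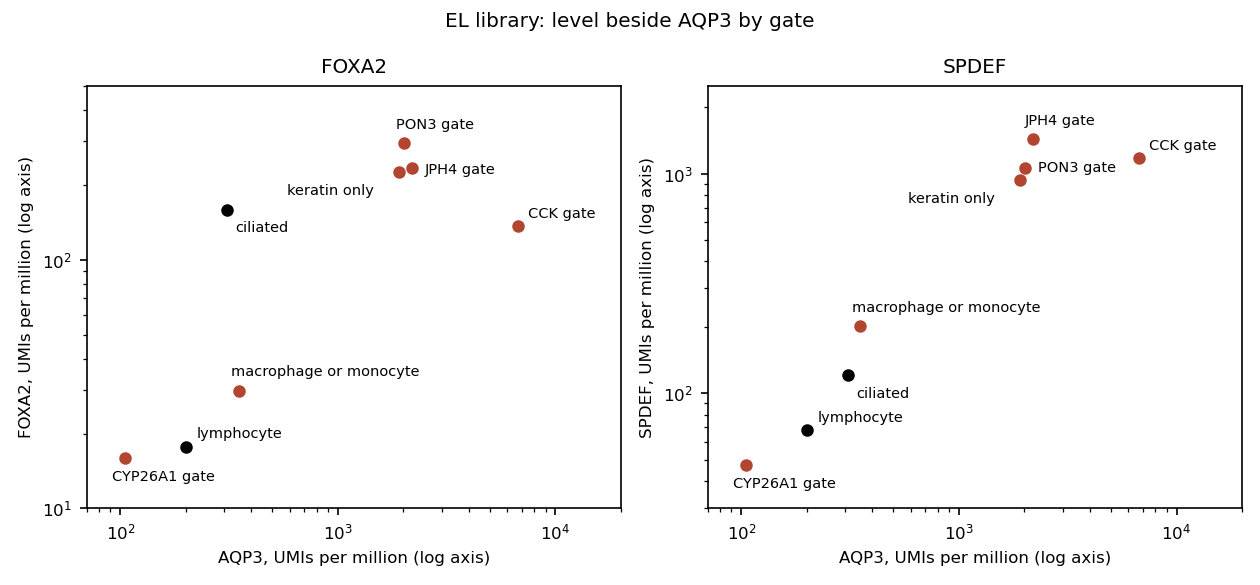
Level of FOXA2 (left) and SPDEF (right) against that of AQP3 in the EL library, both in CPM on log axes, 1 point per gate, with ciliated cells and lymphocytes in black. The ciliated ratio of SPDEF to AQP3 (39.1 per 100 AQP3 UMIs) lies within the 17.5 to 65.1 of the other gates, and that of FOXA2 (51.3) above their 2.03 to 15.1. The low ends, 17.5 and 2.03, are those of the CCK gate, which was gated on AQP3. With that gate left out, only lymphocytes (33.8) lie below ciliated cells for SPDEF.

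In non-ciliated epithelium the sows were compared over gates with almost no cells in common, and each ratio therefore sets different subtypes side by side. FOXA2 stood at 142 CPM in EL (138 to 147, 4868 cells) and 57.4 CPM in EIS (53.1 to 62.0, 2229 cells), 2.48-fold higher in EL (2.28 to 2.70). SPDEF stood at 723 CPM (712 to 733) and 15.9 CPM (13.7 to 18.4), 45.5-fold higher in EL (39.3 to 52.9). The background here was wide: 62.5% of 14699 genes were 2-fold or more higher in EL and 8.78% were so in EIS, with the median gene at 1.34 on the log2 scale. Leaving the genes over 1% of a library out of the totals moved every log2 ratio by -1.09, which made these shares 23.6% and 17.1% and the median 0.25. On the scale of all UMIs FOXA2, at 1.31, lay at that median. SPDEF, at 5.51, lay 4.17 above it, and 180 genes had a ratio at least as high, itself included.

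The same genes above 1% of a library accounted for 53.1% of the UMIs of the EIS non-ciliated epithelium and 0.036% of those of EL. Without them FOXA2 was 1.16-fold higher in EL (1.07 to 1.27) and SPDEF 21.4-fold (18.4 to 24.9), and with TMM factors 1.12-fold (1.03 to 1.21) and 20.4-fold (17.7 to 23.8). The FOXA2 difference was thus small once the abundant secretory transcripts were set aside, and the SPDEF difference was not. Different subtypes carried the sums. PON3, JPH4 and CCK gates together stood 3.74-fold (3.43 to 4.08) above the secretory gland gate for FOXA2 and 69.5-fold (59.9 to 81.0) for SPDEF, or 1.59-fold (1.46 to 1.74) and 29.6-fold (25.5 to 34.5) without those genes. For the CCK gate alone FOXA2 then fell within counting error of the secretory gland gate, with a ratio of 0.915 (0.806 to 1.04).

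Depth again ran with level in the secretory gland gate. Its 1067 cells below 2000 UMIs held 132 CPM FOXA2 (111 to 156) and 33.4 CPM SPDEF (23.3 to 46.5), and its 1004 deeper cells 55.5 CPM (50.8 to 60.6) and 15.9 CPM (13.4 to 18.7). Stromal markers summed to 530 CPM in the EIS non-ciliated cells and 127 CPM in those of EL, and trophoblast markers to 217 and 5.47 CPM. Their part in the ratios was not tested.

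**Figure D4:**
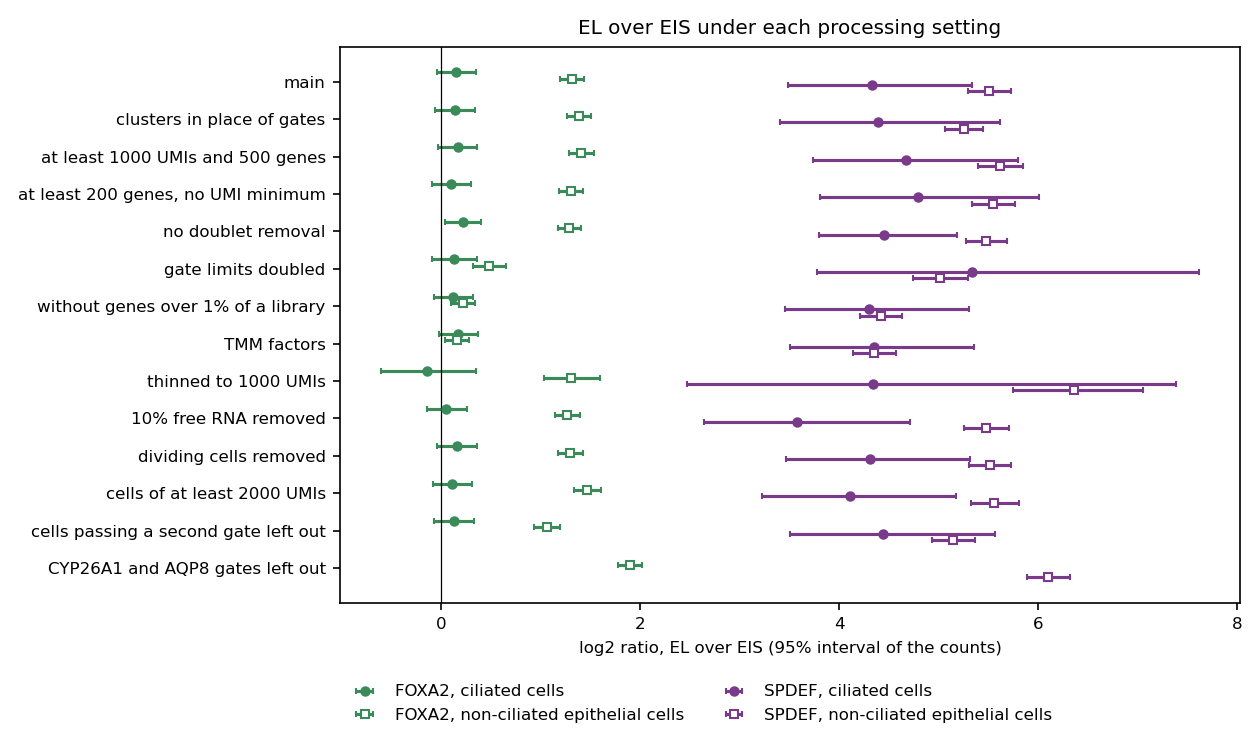
Log2 ratio of EL over EIS for FOXA2 (green) and SPDEF (purple) in ciliated cells (filled circles) and non-ciliated epithelial cells (open squares), reported value on top and each alternative below it, with exact conditional 95% intervals. SPDEF stays between 3.58 and 5.33 in ciliated cells and between 4.35 and 6.36 in non-ciliated cells, and FOXA2 in non-ciliated cells runs from 0.16 to 1.90.

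Within a library the contrast of non-ciliated with ciliated cells also parted the genes. In EL FOXA2 was 1.12-fold (1.05 to 1.19) higher in ciliated than in non-ciliated epithelial cells, and SPDEF 5.97-fold (5.58 to 6.39) higher in the non-ciliated cells. The FOXA2 direction depended on the CYP26A1 gate and on the weight given to deep cells. Without that gate FOXA2 was higher in the non-ciliated cells, at 0.58 on the log2 scale. With the gate kept and every cell thinned to 1000 UMIs, FOXA2 was also higher there, at 0.31. In EIS SPDEF was 2.64-fold (1.44 to 5.38) higher in the non-ciliated cells, on 11 ciliated UMIs.

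The other forkhead genes measured in ciliated cells were FOXJ1, FOXO1 and FOXP1, and none of these 3 reached a 2-fold difference there. FOXJ1 was 1.33-fold (1.251 to 1.42) higher in EIS ciliated cells, but it is a marker of the ciliated gate. Gating on it in both libraries favours like levels. In non-ciliated cells 1 of the same 3 genes reached 2-fold: FOXO1, a factor held back by insulin signalling, stood at 24.6 CPM in EL against 91.6 CPM in EIS, 3.72-fold higher in EIS (3.37 to 4.12). FOXP1 was 1.55-fold (1.38 to 1.74) higher in EL, a direction that turned to -0.46 on the log2 scale without the genes over 1%.

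Genes of gland formation and gland identity were the largest group. In ciliated cells 21 of the 34 listed genes were measured, 3 were 2-fold or more higher in EL and 1 in EIS, beside 6.26% and 4.51% of all genes, and their median log2 ratio was 0.099, beside 0.045. Most were level between the sows, like FOXA2: the oestrogen receptor ESR1 stood at 443 CPM in EL against 431 CPM in EIS. The homeobox gene MSX1 stood at 384 and 359 CPM, and LGR4, a receptor gene of WNT signalling, at 76.1 and 86.0. IHH, a hedgehog ligand under progesterone control, stood at 55.1 and 19.2 CPM, 2.88-fold higher in EL (2.03 to 4.19). WNT7A (5.17-fold, 0.831 to 214) and SOX9 (6.64-fold, 1.10 to 272) were the other 2 past 2-fold, each with 1 EIS UMI, and the WNT7A interval includes no difference. MMP7 was 11.3-fold (7.18 to 18.2) higher in EIS.

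In non-ciliated cells 24 genes of this list were measured, 14 were 2-fold or more higher in EL and 5 in EIS, beside 62.5% and 8.78% of all genes, with a median of 1.66 beside 1.34. Without the genes over 1% these counts were 8 and 7, beside 23.6% and 17.1%, and the median 0.57 beside 0.25. The count higher in EL was thus near the share over all genes. ESR1 stood at 333 CPM in EL against 22.9 CPM in EIS, 14.5-fold higher in EL (12.8 to 16.5). MSX1 stood at 723 and 123 CPM (5.88-fold, 5.57 to 6.21) and IHH at 126 and 22.6 CPM (5.56-fold, 4.89 to 6.33). LEF1, a transcription factor of WNT signalling, differed less, at 186 and 117 CPM (1.59-fold, 1.497 to 1.69), and turned to -0.42 on the log2 scale without the genes over 1%. WNT7A, a WNT ligand of the luminal epithelium that acts in early gland formation, was high where FOXA2 was low. Summed over cells, it stood at 227 CPM in the CYP26A1 gate of EL and 51.0 CPM in the AQP8 gate of EIS. These were the epithelial gates of lowest summed FOXA2 in each library. WNT7A stood at 2.83 CPM or less in the PON3, JPH4, CCK, secretory gland and ciliated gates.

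Of the list of secretory products linked to FOXA2, 8 of 21 genes were measured in non-ciliated cells, 3 of them 2-fold or more higher in EL and 4 in EIS, beside 62.5% and 8.78% of all genes, with a median of -0.37 beside 1.34. Without the genes over 1% the counts were the same, beside 23.6% and 17.1%, and the median -1.46 beside 0.25. LIF stood at 0.0811 CPM in EL (2 UMIs) and 55.1 CPM in EIS (628 UMIs), 680-fold higher in EIS (187 to 5627). Within EIS it stood at 60.02 CPM in the secretory gland gate, 20.4 in the AQP8 gate and 1.09 in ciliated cells, where FOXA2 stood at 63.5, 11.7 and 143 CPM. The gland products ACP5 (62.9 and 84517 CPM) and SPP1 (3.12 and 13398 CPM), which also define the secretory gland gate, were higher in EIS. They count among the 4 genes higher in EIS, a direction that gating on them favours. In the opposite direction ALDH1A1, an enzyme of retinoic acid synthesis, stood at 609 CPM in EL against 71.0 CPM in EIS (8.58-fold, 7.99 to 9.22), and PIGR, the carrier of immunoglobulins across epithelia, at 41.7 and 8.51 CPM. In ciliated cells 6 of these genes were measured, 3 of them 2-fold or more higher in EL and 2 in EIS, beside 6.26% and 4.51% of all genes, with a median of 0.39 beside 0.045. ALDH1A1 was 4.41-fold (3.67 to 5.34) higher in EL there. The others higher in EL were PIGR, with 1 EIS UMI, and STC1, with an interval of 0.794 to 8.57. Those higher in EIS were the gate markers ACP5 and SPP1. ACP5 and UABP-2 together stood at 5252 CPM in EIS ciliated cells and 7345 CPM in EIS lymphocytes.

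Of the mucous secretion list linked to SPDEF, 16 of 35 genes were measured in non-ciliated cells, 5 of them 2-fold or more higher in EL and 6 in EIS, beside 62.5% and 8.78% of all genes, with a median of -0.16 beside 1.34. Without the genes over 1% these were 4, 10 and -1.25, beside 23.6%, 17.1% and 0.25. ST6GALNAC1, which adds sialic acid to mucin sugars, stood at 31.0 CPM in EL and on 3 UMIs in EIS, 118-fold higher in EL (40.1 to 572). It and GALNT12 fall outside the rule for named genes and were picked after their values were seen. GALNT12, which starts such sugar chains, was 6.22-fold (4.56 to 8.69) and the chaperone partner DNAJC10 5.07-fold (4.52 to 5.70) higher in EL. AGR2, which folds mucins, stood at 19.7 CPM in EL against 61.0 CPM in EIS, 3.09-fold higher in EIS (2.75 to 3.48). This EIS value pools gates, and the secretory gland gate alone stood lower, as given above. MUC1 was 2.37-fold (1.71 to 3.31) higher in EIS. KLF4, a factor of epithelial differentiation, stood at 197 and 195 CPM, and turned to -1.07 on the log2 scale without the genes over 1%.

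In ciliated cells 14 genes of this list were measured, 3 of them 2-fold or more higher in EL and 2 in EIS, beside 6.26% and 4.51% of all genes, with a median of 0.53 beside 0.045. TFF3, a small peptide secreted with mucins, stood at 221 CPM in EL against 214 CPM in EIS and at 1.46 to 5.96 CPM in the other named epithelial gates, so unlike SPDEF it stood at like levels in ciliated cells of both sows. PDIA5, another protein disulfide isomerase, was 1.79-fold (1.59 to 2.00) higher in EIS ciliated cells. AGR2 was 1.62-fold (1.251 to 2.12) higher in those of EL.

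Of the other ETS factors, 9 were measured in ciliated cells, 0 of them 2-fold or more higher in EL and 1 in EIS, with a median of -0.14 beside 0.045. With 6.26% and 4.51% of all genes past these limits, counts of 0 and 1 among 9 are near the background. EHF, an ETS factor of epithelia, stood at 64.3 CPM in EL against 118 CPM in EIS ciliated cells, 1.84-fold higher in EIS (1.56 to 2.17). In non-ciliated cells 11 were measured, 3 of them 2-fold or more higher in EL and 4 in EIS, beside 62.5% and 8.78% of all genes, with a median of 0.61 beside 1.34 (1, 4 and -0.48 without the genes over 1%, beside 23.6%, 17.1% and 0.25). ETV1 stood at 0.324 CPM in EL (8 UMIs) and 42.6 CPM in EIS, 131-fold higher in EIS (66.1 to 306). ETS1 was 4.92-fold (3.79 to 6.42) higher in EIS and ELF1 2.78-fold (2.44 to 3.19) higher in EL. On the log2 scale ELF1 stood at 1.48, near the median gene at 1.34. EHF by gate stood at 74.5 CPM in the CYP26A1 gate and 7.68 to 14.0 CPM in the CCK, JPH4 and PON3 gates, which is the reverse of SPDEF.

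**Figure D5:**
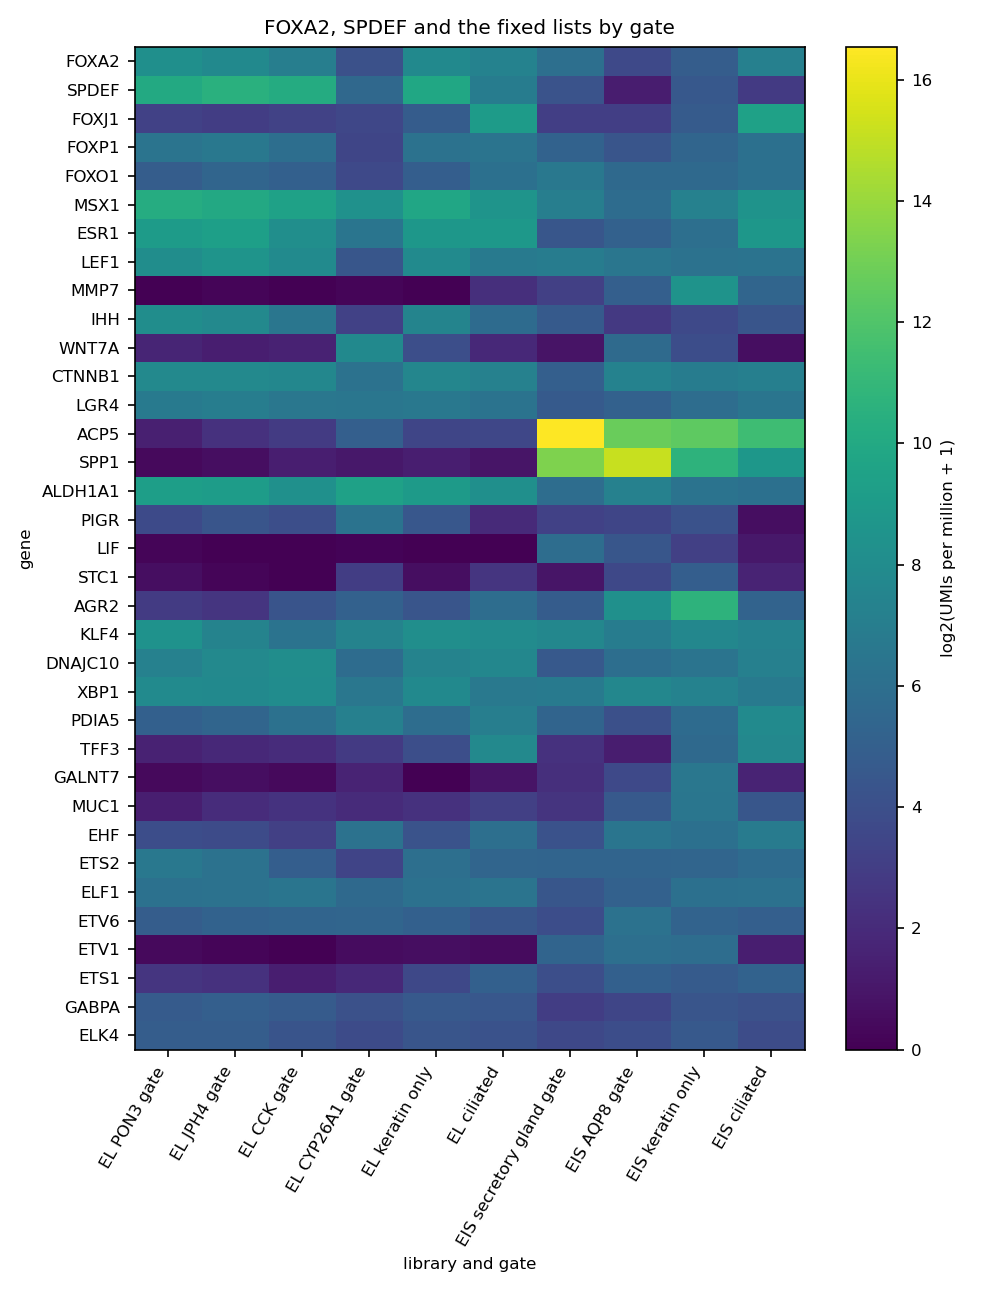
Level of FOXA2, SPDEF and the named genes of the 5 lists, as log2(CPM + 1), in 10 epithelial and ciliated gates of both libraries. WNT7A is bright in the EL CYP26A1 gate (227 CPM) where FOXA2 is dark (15.9 CPM), and TFF3 and FOXJ1 are bright in ciliated cells of both libraries.

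Across these 10 gates the FOXA2 and SPDEF patterns had a Pearson correlation of 0.74 on the log2(CPM + 1) scale. Gates of a library share free RNA and depth, so this and the following values are descriptions. Among 6360 genes, those most like FOXA2 were LYSMD3 (r = 0.972), EVA1A (0.960), the general transcription factor SP1 (0.956), GNAS, which encodes the stimulatory G protein subunit (0.952), and PREX2 (0.951). LYSMD3, for example, stood at 47.7 CPM in the PON3 gate, 33.1 and 33.4 CPM in EL and EIS ciliated cells and 9.27 CPM in the CYP26A1 gate. Those most like SPDEF were the membrane endopeptidase MME (0.989), LRRN1 (0.986), the cysteine dioxygenase CDO1 (0.986), TMEM144 (0.986) and the ephrin receptor EPHA7 (0.981). MME stood at 546 CPM in the JPH4 gate, 715 CPM in the CCK gate, 48.2 CPM in EL ciliated cells, 4.93 CPM in EIS ciliated cells and 24.7 CPM in the secretory gland gate.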

How the data were processed

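The values deposited by the authors are whole-number UMI counts for each gene in each barcode, without scaling. The submitters' processing notes name Cell Ranger 2.1.1, whereas cellranger 6.1.0 is named in the matrix, per the file headers. Neither a genome build nor an annotation is given in the sources used here. Of the 26881 features, 16128 have no gene symbol, so genes of the lists absent by symbol were not measured. Barcodes of at least 500 UMIs and 300 genes were kept. Scrublet (scanpy 1.11.5) scored doublets within each library, and those of highest score, 0.8% per 1000 barcodes (933 EL and 601 EIS), were removed, since the automatic threshold marked 0 and 1.

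Each cell was given to the gate whose marker UMIs per 10000 most exceeded that gate's limit, with at least 3 marker UMIs. Limits were 15 for ciliated cells, 1000 for the secretory gland, 10 for PON3, 12 for JPH4, 50 for CCK, 15 for CYP26A1 and 60 for AQP8, and 10 for the keratins. The limits, and the AQP8 and HAVCR1 gates, were set after seeing the data. A second gate was passed by 1320 EL cells (13.4%) and 2871 EIS cells (35.6%), 445 and 278 cells lay within 20% below a limit, and 1858 and 873 passed no gate. Non-ciliated epithelial cells are the secretory gland, PON3, JPH4, CCK, CYP26A1 and AQP8 gates. Clusters for the alternative were computed without FOXA2 and SPDEF (2000 variable genes, 30 components, 15 neighbours, leidenalg 0.10.2 at resolution 1).

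UMIs were summed per gate and scaled to the gate total. Ratios of sums have exact conditional intervals. Genes with at least 20 UMIs over both libraries were counted as higher at 2-fold or more, in place of a rule on the interval. Named genes were FOXA2 and SPDEF, of each of the 5 lists up to 8 members of the highest level in an epithelial or ciliated gate (at least 20 CPM), and the 5 genes most correlated with each of the 2 genes over 10 gates. The members, marker lists and gene lists were chosen with earlier results of these data known. The computation was checked on simulated data. Versions were matplotlib 3.10.9, pandas 2.3.3, scipy 1.17.1, numpy 2.4.6 and Python 3.11.15.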

Additional observations from a re-analysis of the deposited data

How the results depend on the processing

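The 8 ratios (EL over EIS, and non-ciliated over ciliated, for each gene) were recomputed under 13 alternatives, of which those on cells of at least 2000 UMIs, on cells passing a second gate and on leaving out the CYP26A1 and AQP8 gates were chosen after seeing the data. All values are log2 ratios. No paired analysis was possible because each group has 1 library. SPDEF in EL over EIS ciliated cells stayed within counting error in all 12 alternatives that apply (3.58 to 5.33), and FOXA2 there in 11 of 12, turning from 0.15 to -0.14 when cells were thinned. FOXA2 EL over EIS in non-ciliated cells moved from 1.31 to 0.48 with gate limits doubled, 0.22 without genes over 1% of a library, 0.16 with TMM factors, 1.47 in cells of at least 2000 UMIs, 1.06 without cells passing a second gate and 1.90 without the CYP26A1 and AQP8 gates. SPDEF there moved from 5.51 to 5.25 with clusters, 5.01 with limits doubled, 4.42 without genes over 1%, 4.35 with TMM factors, 6.36 thinned, 5.15 without second-gate cells and 6.104 without those gates. FOXA2 non-ciliated over ciliated in EL moved from -0.16 to -0.019 with clusters, -1.12 with limits doubled and -0.36 without second-gate cells, and turned to 0.31 thinned and 0.58 without those gates. In EIS it moved from -1.32 to -0.26 without genes over 1% and -1.53 in cells of at least 2000 UMIs, and turned to 0.022 with TMM factors. SPDEF non-ciliated over ciliated in EL moved from 2.58 to 3.05 with clusters, 1.92 with no doublet removal, 2.31 with limits doubled, 2.91 thinned, 3.48 with 10% free RNA removed, 2.80 in cells of at least 2000 UMIs, 2.45 without second-gate cells and 3.34 without those gates. In EIS it moved from 1.40 to 2.63 with limits doubled, 2.46 without genes over 1% and 2.74 with TMM factors. Leaving out the abundant genes changes the totals by construction; for the other settings the cause was not tested. With 11 SPDEF UMIs in EIS ciliated cells and 2 in the AQP8 gate, counting sets the precision of every ratio that uses them.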
